A study of Mus musculus with 8 samples.

Results

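The transcripts described here are those of the mitochondrial genome in brown adipose tissue (BAT). Members were all genes whose symbol in the count files begins with mt-, and 13 of the 33641 genes with a row qualified. All 13 are messenger RNAs, and the ribosomal and transfer RNAs of the mitochondrial genome were not analysed here. Poly(A) RNA-seq libraries had been made from interscapular BAT of 8 C57BL/6 mice aged 28 weeks. In *Adipo-HuR-/-* mice, floxed alleles of *Elavl1*, which encodes the RNA-binding protein HuR, are deleted by a Cre recombinase transgene driven by the adiponectin promoter, so that other cells of the tissue keep the gene. Control mice were littermates with the genotypes *wt/wt-cre+*, *flox/flox-cre-* or *wt/flox-cre-*, and the labels do not say which control animal had which. Mice were housed at 23°C, and the labels do not give the diet of these animals. By the labels, control is the genotype of 3 libraries (A12, A8, A7) and *Adipo-HuR-/-* that of 5 (A31, A29, A26, A25, A24). In the study's own legend these group sizes stand the other way round. Groups follow the labels throughout.

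Mitochondrial DNA encodes core subunits of the respiratory chain and of ATP synthase, and the rest of each complex is encoded in the nucleus. Both strands are transcribed as long precursors, from which the transfer RNAs that lie between most genes are cut out, so that the levels of the released messenger RNAs depend on processing and stability as well as on transcription. Brown adipocytes are rich in mitochondria and use the proton gradient of the respiratory chain for heat production through the uncoupling protein UCP1.

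*Elavl1* itself was measured at 50.6 CPM (the count relative to the library's TMM-scaled total) in A7, 49.2 in A12 and 48.0 in A8. Libraries with the *Adipo-HuR-/-* label had 61.2 CPM in A31, 61.3 in A29, 43.4 in A26, 47.3 in A25 and 61.9 in A24. Reduced expression of the targeted gene was thus not seen under the *Adipo-HuR-/-* label (log2 fold change 0.16, standard error 0.162, adjusted p = 0.667 in edgeR's quasi-likelihood test). Every direction below therefore rests on the labels.

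Mitochondrial messenger RNAs made up a large share of every library. They held 17.3% of all counts in A7, 27.2% in A12 and 33.1% in A8, all labelled control. With the *Adipo-HuR-/-* label they held 22.5% in A31, 26.5% in A29, 25.6% in A26, 14.3% in A25 and 21.6% in A24. The means were 25.9% ± 8.02 (SD, n = 3) and 22.1% ± 4.84 (SD, n = 5), the groups overlapped, and the difference of -3.77 percentage points was smaller than the spread between libraries. Without A8 the difference was -0.14 points, and without A7 it was -8.07, with the remaining control libraries above all others. Totals lay between 17558090 counts in A25 and 67498055 in A26, so that the widest 95% Wilson interval of these shares spanned 0.038 points; these intervals cover counting error only. A24 (18264754 counts) and A25, both labelled *Adipo-HuR-/-*, had the fewest counts.

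**Figure D1:**
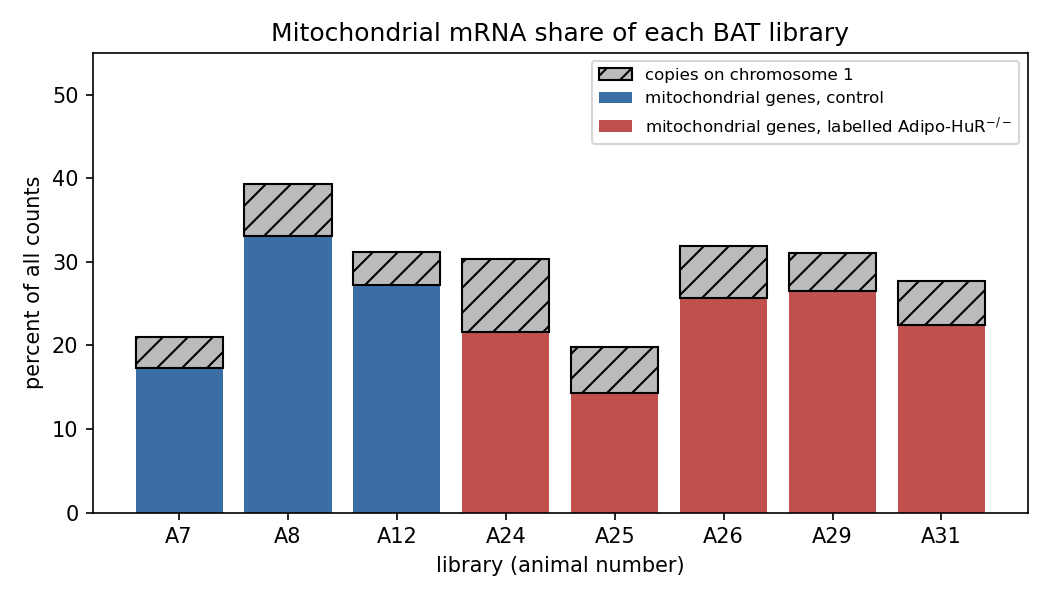
Bars give the percent of all counts in each library assigned to the 13 mitochondrial genes (blue for libraries labelled control, red for those labelled Adipo-HuR-/-), with counts assigned to their copies on chromosome 1 stacked above (hatched). The highest bar, A8 (33.1% before the copies are added), and the second lowest, A7 (17.3%), are both control libraries.

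Some counts lay on nuclear copies of mitochondrial genes, and from which of them the reads came was not tested. A block of chromosome 1 (GRCm38, minus strand) between 24611535 and 24616197 holds 7 annotated unprocessed pseudogenes that repeat mitochondrial genes. The copies of *mt-Atp6*, *mt-Co2*, *mt-Co3*, *mt-Nd4* and *mt-Nd4l* are identical to the mitochondrial sequence over their whole length, though that of *mt-Nd4* covers 63.6% of the gene. The copy of *mt-Nd3* (*Gm28438*) differs by 1 base in 345, T3C, counted from the first base of the gene. The sequences around this base, with it in capitals, show how little there is to tell the gene from its copy.
mt-Nd3: atTaacctgtacact
Gm28438: atCaacctgtacact
The copy of *mt-Co1* (*Gm29216*) covers 31.8% of the gene and differs by 6 bases in 492, all close together near its start. The first of them, T1056A, is in capitals below.
mt-Co1: ggTctaaccggaatt
Gm29216: ggAttggcaggattt

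How counts were divided between gene and copy varied by gene and by library. For *mt-Atp6*, the copy *Gm10925* held 2.38% of the counts of gene and copy together in A7, 0.51% in A12 and 3.17% in A8. In the libraries labelled *Adipo-HuR-/-* it held 0.11% in A31, 0.10% in A29, 3.68% in A26, 71.16% in A25 and 68.95% in A24. The libraries with the fewest counts were thus the ones in which most *mt-Atp6* counts lay on the copy; a part of depth in this was not tested. The copy's share ranged from 38.01% to 74.75% for *mt-Co2*, from 37.16% to 70.70% for *mt-Co3*, from 23.74% to 81.49% for *mt-Nd3* and from 10.02% to 28.19% for *mt-Co1*. The copies of *mt-Nd4* and *mt-Nd4l* held 0 counts in every library, although they are just as identical. Values of the 5 genes with counts on a copy are uncertain as deposited, and they are given below also with the counts of the copy added.

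**Figure D2:**
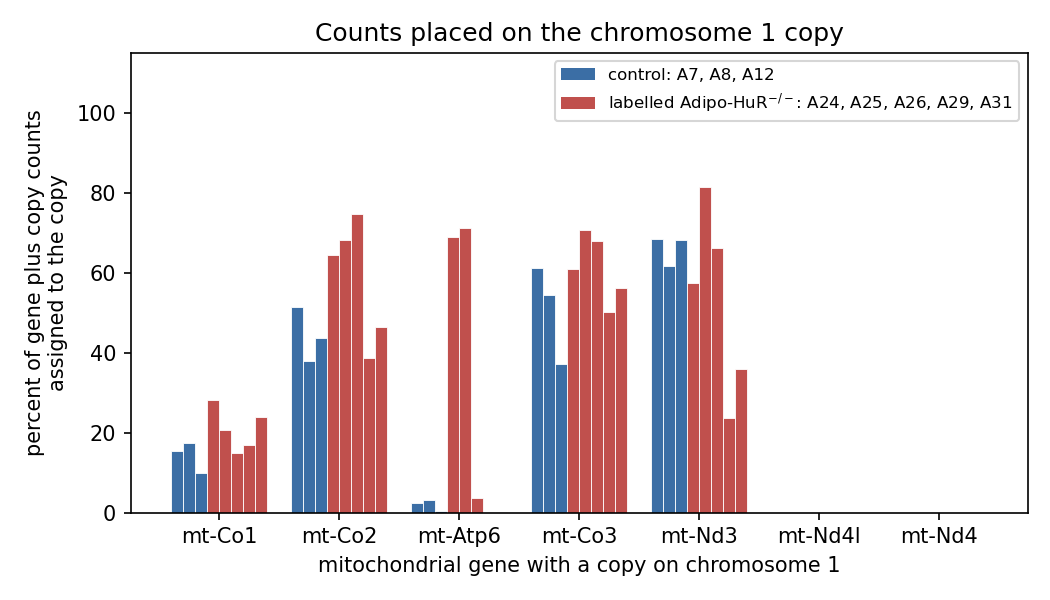
Bars give, for each mitochondrial gene with a copy on chromosome 1, the percent of the counts of gene and copy assigned to the copy in each library, in the order A7, A8, A12 (blue, labelled control), A24, A25, A26, A29, A31 (red, labelled Adipo-HuR-/-). For mt-Atp6 the values are 68.95% and 71.16% in A24 and A25 and at most 3.68% in the other libraries; mt-Nd4l and mt-Nd4 are at 0.

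With the copies added, the mitochondrial share was 21.0%, 39.3% and 31.2% in A7, A8 and A12. It was 30.3%, 19.9%, 31.9%, 31.04% and 27.7% in A24, A25, A26, A29 and A31. The difference between the groups was then -2.28 points, with means of 30.5% ± 9.18 (SD, n = 3) and 28.2% ± 4.91 (SD, n = 5) and overlapping groups. Its sign depended on A8. Without A8, the remaining control libraries (21.0% and 31.2%) had a mean below 28.2%, so that the difference was positive. Without A7, the remaining control libraries (39.3% and 31.2%) left it negative.

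Levels of the 13 messenger RNAs per length, with copies added, spanned an order of magnitude. Length was the full annotated length of each gene, with no correction for short genes or for bases shared between genes. *mt-Co2* and *mt-Co1*, subunits of the catalytic core of cytochrome c oxidase (complex IV), led at 64932 ± 25335 and 48660 ± 12440 CPM per kilobase (SD, n = 8), in this order in all 8 libraries. *mt-Cytb*, the cytochrome b of complex III, followed at 37072 ± 13369, above *mt-Atp6* (35123 ± 15175) in 7 of 8 libraries. *mt-Atp6*, the subunit of ATP synthase (complex V) that forms the proton path with the rotor, and *mt-Co3* (33175 ± 12498), the third mitochondrial subunit of complex IV, changed places between libraries. Subunits of the NADH dehydrogenase (complex I) were lower. *mt-Nd1* was at 22894 ± 8561, *mt-Nd4* at 17202 ± 7387 and *mt-Nd2* at 16957 ± 6587, the latter pair without a fixed order. *mt-Atp8*, the other complex V gene, was at 15601 ± 12951, with the widest spread relative to its mean. Its place in this order depended on the group, with 27681 ± 14344 (SD, n = 3) in libraries labelled control and 8353 ± 3939 (SD, n = 5) in those labelled *Adipo-HuR-/-*. *mt-Nd4l*, *mt-Nd3*, *mt-Nd6* and *mt-Nd5* had means between 8220 and 6464 CPM per kilobase, closer to each other than their spread between libraries. Every one of the 13 was highest in A8, and 10 were lowest in A25.

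None of the 13 genes was past the threshold between the groups (adjusted p at most 0.05 and a fold change of at least 1.5 in edgeR's quasi-likelihood test). Over all genes tested, 105 of 14851 (0.707%) were past it, 36 higher and 69 lower in the libraries labelled *Adipo-HuR-/-*. The number over all genes depended on single libraries: it was 13 without A7, 190 without A12, 15 without A25, 10 without A26, 14 without A29 and 17 without A31. At an unadjusted p under 0.05, 1 of the 13 (*mt-Atp8*) and 2531 of all genes were found. *mt-Atp8* was also the only one of the 13 past the threshold in DESeq2's Wald test, in which 2.95% of all genes were lower, and in edgeR's likelihood ratio test (2.48% lower), and limma voom found none. The CPM of the groups overlapped for all 13, whereas the groups did not overlap for 11.5% of all genes tested.

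The fold changes lay below 0 for 12 of the 13 genes, with a median log2 of -0.36 against 0.00098 over all genes. When libraries were scaled by total counts only, the median of all genes moved by 0.23, 9 of 13 were below 0 with a median of -0.10, and calls over all genes were 96 higher and 25 lower. With copies added and TMM scaling, all 13 lay below 0. Without control library A8, 7 of the 13 were below 0, with a median of -0.021. Without control library A7, all 13 were, with a median of -0.65.

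*mt-Atp8* had the largest difference among the 13. It encodes a small membrane subunit of ATP synthase and lies from 7766 to 7969 on the plus strand of the mitochondrial genome. It was measured at 6161 CPM in A12, 8283 in A8 and 2498 in A7. Libraries with the *Adipo-HuR-/-* label had 1808 CPM in A31, 2902 in A29, 1606 in A26, 654 in A25 and 1549 in A24. A29 thus lay above A7, and the other 4 lay below every control library. The log2 fold change was -1.73 (standard error 0.452, 95% interval from -2.73 to -0.73), with an adjusted p of 0.0978 in edgeR's quasi-likelihood test. Its adjusted p ranged from 0.00368 to 0.284 over 24 alternative settings, with a log2 fold change between -2.09 and -1.34. No transcript on chromosome 1 was taken as a copy of this gene, though 7.5% of its 31-base words also occur in nuclear transcripts. *Gm10925*, the chromosome 1 copy of *mt-Atp6*, shares words with *mt-Atp8*, and all counts of that copy were added to *mt-Atp6*.

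*mt-Atp8* and *mt-Atp6* are read from a shared messenger RNA. The last 43 bases of *mt-Atp8* (7927 to 7969), in capitals below, are also the first of *mt-Atp6*, so that reads from this overlap can belong to either gene.
mt-Atp8: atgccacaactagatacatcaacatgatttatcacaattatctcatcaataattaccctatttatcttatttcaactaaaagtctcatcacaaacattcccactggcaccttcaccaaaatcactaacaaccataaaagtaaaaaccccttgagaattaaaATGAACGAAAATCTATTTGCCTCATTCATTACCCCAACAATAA
The gene is 204 bases long, with a GC content of 31.9%, the shortest and the lowest in GC of the 13, and the overlap makes up 21.1% of it. Its partner *mt-Atp6*, with the copy added, was 31744 CPM in A12, 44564 in A8 and 16067 in A7. Libraries with the *Adipo-HuR-/-* label had 17085 in A31, 22787 in A29, 21221 in A26, 12100 in A25 and 25782 in A24, with overlapping groups. The log2 fold change of *mt-Atp6* was -0.64 (standard error 0.350, adjusted p = 0.385 in edgeR's quasi-likelihood test) with the copy and -1.07 (standard error 0.547, adjusted p = 0.356) without it.

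The ratio of *mt-Atp8* to *mt-Atp6* counts, chosen after its values were seen and therefore not tested, was 0.194 in A12, 0.186 in A8 and 0.155 in A7 with the copy added. It was 0.106 in A31, 0.127 in A29, 0.076 in A26, 0.054 in A25 and 0.060 in A24, below every control library. This separation depended on the copy. From counts as deposited, the ratio was 0.159, 0.192 and 0.195 in A7, A8 and A12, and 0.193, 0.187, 0.079, 0.127 and 0.106 in A24, A25, A26, A29 and A31, so that the groups overlapped.

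The share of each gene within the summed mitochondrial counts, a measure chosen after seeing the data, removes the differences in total between libraries. With copies added, *mt-Atp8* made up 1.87% in A12, 1.61% in A8 and 1.21% in A7. In the libraries labelled *Adipo-HuR-/-* it made up 0.73% in A31, 0.97% in A29, 0.50% in A26, 0.40% in A25 and 0.50% in A24, without overlap. *mt-Nd4*, a proton-pumping subunit of complex I, made up 8.53%, 8.77% and 8.64% in A7, A8 and A12. It made up 7.66%, 6.35%, 7.32%, 7.41% and 7.47% in A24, A25, A26, A29 and A31, again without overlap. These 2 of 13 genes were both lower in the libraries labelled *Adipo-HuR-/-*. Per mitochondrial count, 0.296% of all genes were lower without overlap. For nuclear genes that scale also carries the spread of the mitochondrial total, so that the 2 shares are not a like comparison. From counts as deposited, *mt-Nd4* overlapped, *mt-Atp8* and *mt-Atp6* were lower and *mt-Nd1* was higher without overlap, against 0.182% of all genes lower and 4.77% higher on that scale. In a fit scaled to the mitochondrial total, chosen after seeing the data, *mt-Atp8* had a log2 difference of -1.34 (standard error 0.317, adjusted p = 0.0309 in edgeR's quasi-likelihood test), where 0.66% of all genes were past the threshold and lower, and *mt-Nd4* had -0.26 (standard error 0.224, adjusted p = 0.882).

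**Figure D3:**
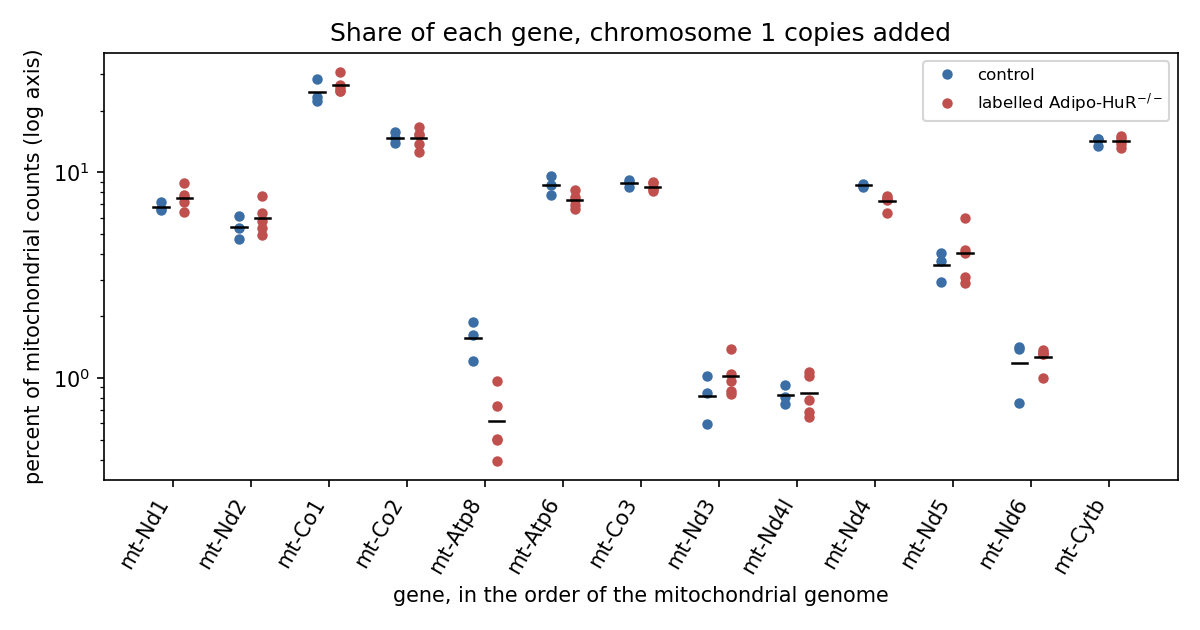
Points give the percent of the summed mitochondrial counts, on a log axis and with the chromosome 1 copies added, held by each gene in each library (blue for the 3 labelled control, red for the 5 labelled Adipo-HuR-/-), and short lines give group means. The groups are apart for mt-Atp8 (1.21% to 1.87% against 0.40% to 0.97%) and mt-Nd4 (8.53% to 8.77% against 6.35% to 7.66%).

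By complex, complex IV messenger RNAs held the largest share of the mitochondrial counts, 48.3% ± 2.72 (SD, n = 3) in libraries labelled control and 49.8% ± 2.64 (SD, n = 5) in those labelled *Adipo-HuR-/-*. Complex I held 27.2% ± 1.94 and 28.0% ± 3.002, and complex III, by *mt-Cytb*, 14.2% ± 0.63 and 14.2% ± 0.71. Complex V held 10.3% ± 1.23 and 7.97% ± 0.68, without overlap (9.02% in A7 against 8.74% in A24). Of its genes, *mt-Atp8* alone was without overlap, as given above, whereas *mt-Atp6* overlapped (7.81% in A7, 8.25% in A24). These sums have the copies added and rest on the same measure chosen after seeing the data. A matching share over all genes was not computed for them.

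Among the other complex I genes, *mt-Nd1* had a log2 difference of -0.22 (standard error 0.385), *mt-Nd2* -0.21 (0.405) and *mt-Nd5* -0.20 (0.446), with adjusted p-values between 0.820 and 0.859 in edgeR's quasi-likelihood test. All 3 turned positive when libraries were scaled by total counts. *mt-Nd4* had -0.63 (0.361), and *mt-Nd4l*, which overlaps it by 7 bases on the same strand, -0.33 (0.303). Leaving out single libraries, *mt-Nd4* ranged from -0.91 to -0.22 and *mt-Nd4l* from -0.54 to -0.021, nearest 0 without A8. *mt-Nd3* had 0.39 (0.603) as deposited and -0.10 (0.409) with its copy added. *mt-Nd6*, the only messenger RNA encoded on the other strand of the mitochondrial genome, had -0.36 (0.444) and shares 14 bases with *mt-Nd5* on opposite strands; whether counting used strand is not given in the sources used here.

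Outside complex I, *mt-Cytb* had a log2 difference of -0.39 (standard error 0.345). With copies added, *mt-Co1* had -0.25 (0.293), *mt-Co2* -0.41 (0.361) and *mt-Co3* -0.45 (0.330), against -0.35 (0.305), -0.85 (0.494) and -0.78 (0.394) as deposited. Leaving out single libraries, the values as deposited ranged from -0.56 to -0.088, from -1.19 to -0.27 and from -1.13 to -0.47. They were nearest 0 without A8. Apart from *mt-Atp8*, adjusted p-values of the 13 lay between 0.349 and 0.859 as deposited and between 0.385 and 0.923 with copies added in edgeR's quasi-likelihood test.

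Reading along the precursor, the ratio of *mt-Cytb*, the last messenger RNA on its strand, to *mt-Nd1*, the first, was 2.05 in A12, 2.04 in A8 and 2.20 in A7. It was 1.90, 2.35, 1.89, 1.49 and 1.93 in A24, A25, A26, A29 and A31. The groups overlapped (log2 difference -0.15, two-sided exact permutation p = 0.375, adjusted p = 0.75 over 2 ratios). The overlap came from A25, without which the log2 difference was -0.23 and the unadjusted p 0.0571 in the same permutation test. With other single libraries left out, the unadjusted p of this test was up to 0.543. The ratio of *mt-Nd6* to its neighbour *mt-Nd5* was 0.258, 0.371 and 0.350 in A7, A8 and A12, and 0.473, 0.323, 0.219, 0.310 and 0.330 in A24, A25, A26, A29 and A31. It overlapped as well (two-sided exact permutation p = 1, adjusted p = 1). With 3 libraries against 5, this test runs over 56 splits, which limits how small its p can be. Ratios to the ribosomal RNAs were not analysed here.

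The genes *mt-Co3*, *mt-Nd4* and *mt-Cytb* end within a stop codon, which is completed in the messenger RNA by the poly(A) tail through which these libraries were selected. Their last 24 bases are given below with the single base of the stop codon in capitals.
mt-Co3: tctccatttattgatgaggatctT
mt-Nd4: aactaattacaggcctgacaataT
mt-Cytb: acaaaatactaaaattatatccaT

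Of 191 tested genes of the mitochondrial lists, 1 was past the threshold. The 50 genes reported from these lists had adjusted p-values between 0.106 and 0.998.

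Of 23 genes for transfer RNA charging, 11 had log2 fold changes above 0 and 12 below, with a median of -0.02. *Sars2* (serine) had 0.61 (standard error 0.164), and the most abundant, *Lars2* (leucine), *Iars2* (isoleucine) and *Gars* (glycine, also in the cytosol), had -0.06, -0.27 and -0.24. For mitochondrial transcription, 7 of 11 genes were above 0 with a median of 0.07. *Polrmt*, the RNA polymerase of mitochondria, had 0.49 (standard error 0.152), *Tfam*, which packages and helps transcribe mitochondrial DNA, had 0.30, *Tfb2m*, its partner in initiation, had -0.20 and *Mrpl12* had 0.27.

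Of 17 genes for mitochondrial DNA replication and maintenance, 9 were above 0 and 8 below, with a median of 0.07. *Top1mt*, the mitochondrial topoisomerase, had a log2 difference of -0.50 (standard error 0.137), and *Rrm2b*, a ribonucleotide reductase subunit, -0.50 (0.150). *Mpv17* had -0.32, *Ssbp1*, the single-strand binding protein, -0.28, and *Polg*, the DNA polymerase of mitochondria, 0.12.

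Of 30 genes for RNA processing and modification, 20 were above 0, with a median of 0.17. *Gtpbp3*, a modifier of transfer RNAs, had 0.52 (standard error 0.165), *Mettl15*, a methyltransferase of the small ribosomal RNA, -0.76 (0.243), *Fastk* 0.39, *Grsf1*, an RNA granule protein, -0.13, and *Hsd17b10*, a subunit of the enzyme that cuts the 5′ ends of transfer RNAs, 0.13. Of 7 genes for RNA stability and decay, 4 were above 0 with a median of 0.05. *Lrpprc*, which stabilizes mitochondrial messenger RNAs, had -0.31 (standard error 0.156), the helicase *Supv3l1* 0.26 and the oligoribonuclease *Rexo2* -0.32. Of 13 translation factors, 8 were above 0 with a median of 0.04. The elongation factor genes *Gfm1* and *Tufm* had -0.47 (0.152) and 0.07, the recycling factor *Gfm2* -0.45 (0.144) and *Ptcd3* 0.04.

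Nuclear subunits of the same complexes had no call. Medians were 0.07 over 36 genes of complex I, 0.21 over 9 of complex III, 0.02 over 14 of complex IV and 0.01 over 15 of complex V, with 0.08 over the 4 genes of complex II, which has no subunit encoded by mitochondrial DNA. In complex I, *Ndufs7* had 0.51 (standard error 0.279), *Ndufv1* 0.11 and *Ndufb8* 0.05. In complex III, *Cyc1* had 0.50 (0.215), *Uqcrc1* 0.21 and *Uqcrc2* 0.11. In complex IV, *Cox4i1* had 0.21, *Cox5a* 0.36, *Cox6a1* 0.20, *Cox6b1* -0.0016 and *Cox6a2*, an isoform of striated muscle and brown fat, -4.62 (1.533). Its CPM was 13.8 in A7, 15.1 in A8, 1.59 in A31 and at most 0.059 elsewhere. The sum of the contractile genes given below was also highest in A7, A8 and A31, and with these genes as a covariate *Cox6a2* had 0.93. In complex V, *Atp5a1* and *Atp5b*, the catalytic core, had -0.04 and -0.04, *Atp5j2* 0.10, and *Atp5g1* and *Atp5g2*, which encode the same mature rotor subunit, -1.14 (0.412) and 0.81 (0.312). In complex II, *Sdha*, *Sdhb*, *Sdhc* and *Sdhd* had -0.03, 0.04, 0.11 and 0.15.

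Mitochondrial counts with copies per count of the nuclear subunits of complexes I, III, IV and V were 9.40 in A12, 9.15 in A8 and 6.15 in A7. They were 5.61, 3.81, 8.61, 7.50 and 6.40 in A24, A25, A26, A29 and A31, with overlapping groups. Of 12 reference genes of the matrix and membranes, 7 were above 0 with a median of 0.01. Citrate synthase (*Cs*) had a log2 fold change of 0.04, the chaperone genes *Hspa9* and *Hspd1* had -0.13 and 0.24, the import channel gene *Tomm40* had 0.44 and the outer membrane channel gene *Vdac1* had -0.35 (0.147).

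Markers of cell types were examined in the same libraries. The 10 genes listed as brown adipocyte markers include *Fabp4*, *Adipoq* and *Plin1*, which are not particular to brown fat. All 10 were detected and summed to 22514 CPM in A12, 31536 in A8 and 15302 in A7. They summed to 26654, 14516, 19664, 19620 and 24030 in A24, A25, A26, A29 and A31, and *Ucp1* alone averaged 8130 CPM. A8 was highest and A25 lowest in this sum, as for most mitochondrial genes; a part of adipocyte RNA content in the mitochondrial share was not tested, and fewer cells of a type and less RNA per cell cannot be told apart in tissue. *Fabp4* was the most abundant marker (log2 fold change -0.21), with *Ucp1* at -0.13, *Cidea* -0.24, *Elovl3* 0.72 (standard error 0.379) and *Prdm16* 0.60 (0.228). The white adipocyte markers *Lep* and *Retn* had -1.22 (0.532) and 0.99 (0.339). Leaving out single libraries, *Lep* ranged from -1.63 without A12 to -0.35 without A7.

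Skeletal muscle genes differed most between libraries. The 26 contractile genes, none at 0 in every library, summed to 69 CPM in A12, 2470 in A8 and 4109 in A7. They summed to 56, 46, 40, 67 and 445 in A24, A25, A26, A29 and A31. All 26 had log2 fold changes below 0, and 3 were past the threshold and lower, the myosin genes *Myh7* (-7.86), *Myl1* (-2.28) and *Myl2* (-7.71), against 69 of all 14851 genes. With single libraries left out, *Myl1* stayed past the threshold only without A12 (adjusted p = 0.00573 in edgeR's quasi-likelihood test), and its adjusted p was up to 0.137 in the other fits. *Myh7* and *Myl2* did not pass the filter without A31. In the other 7 fits, *Myl2* stayed past the threshold only without A12 and *Myh7* only without A12 or A8, with adjusted p-values up to 0.126 and 0.131. Groups overlapped for *Myh7* and *Myl2*, with control library A12 at 0.021 and 0.042 CPM. *Myh4*, the most abundant, had -4.55, *Acta1* -4.80 and *Tnnt3* -4.66, with overlapping groups. With the mean of the contractile genes as a covariate, 15 genes were past the threshold, and *mt-Atp8* had a log2 fold change of -1.80 with an adjusted p of 0.284 in edgeR's quasi-likelihood test. Without A7, A8 and A31, which leaves 1 control library assumed to vary like the rest, it had -1.88.

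Markers of other cells had no call. Endothelial markers summed to 408 ± 53.3 CPM (SD, n = 3) and 467 ± 93.4 (SD, n = 5), led by *Cdh5* (log2 fold change 0.16), with *Kdr* at 0.03, *Pecam1* 0.31 and *Tie1* 0.62. Macrophage markers summed to 83.6 ± 46.2 and 76.9 ± 21.6, led by *Lyz2* (-0.07), with *C1qa* at -0.04, *Csf1r* -0.40 and *Mrc1* -0.60, and 1 of the 6 was above 0. Lymphocyte markers were near 0, with sums of 1.30 ± 0.461 and 1.81 ± 0.515 (*Cd79a* 0.40, *Cd8a* 0.77, *Cd4* 0.10 and *Cd3e* 1.40). Erythroid genes summed to 942 ± 157 and 734 ± 307, led by *Hbb-bs* (-0.26), with *Hba-a1* at -0.34, *Hba-a2* -0.49 and *Alas2* -0.72. Fibroblast markers summed to 280 ± 138 and 176 ± 47.3 (*Col3a1* -1.09, *Col1a1* -0.42 and *Dcn* -0.17), and *Mbp*, a marker of Schwann cells, had -0.26.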

How the data were processed

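RNA had been extracted with Trizol and poly(A) libraries made with the TruSeq kit. For 105129 transcripts on GRCm38, the authors deposited estimated counts that were not normalized and are written to 6 significant digits where large. The study's methods name CLC Genomics Workbench, and the program behind the estimated counts is not given in the sources used here. Gene values are rounded sums over all transcripts of a symbol. Groups were compared in R 4.3.3 with edgeR 4.0.16 (filterByExpr, TMM scaling, quasi-likelihood test, Benjamini-Hochberg adjustment over all 14851 genes kept), which stands in for CLC, with the study's thresholds of 0.05 and 1.5. Standard errors are the log2 fold change divided by the square root of F. DESeq2 1.42.0 and limma 3.58.1 were alternatives, and single ratios were compared by exact permutation in Python 3.11.15 with scipy 1.17.1. The tests were tried on simulated data. Nuclear copies were transcripts sharing at least 50% of their 31-base words with a mitochondrial gene, from GENCODE M21 sequences. The labels name separate animals.

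The members and lists were chosen with earlier results of these data known. Genes selected for the text are the members and, of each list, every gene past the threshold, the 3 with the highest mean CPM and the 2 with the smallest unadjusted p; *Elavl1*, the nuclear copies and *Gm20594* were named outside this rule, the last after its values were seen. Some selected genes are not reported here and were not replaced; counts and medians of the lists include them. Alternatives covered scaling, test, filter, nuclear copies, a contractile gene covariate and libraries left out. Copies combined with total counts or with scaling to the mitochondrial total, removal of each library's GC trend (loess, span 0.3), and the alternatives for shares within the mitochondrial counts and for the ratio of *mt-Atp8* to *mt-Atp6* were chosen after seeing the data. A list of RNAs without poly(A) tail or kept in the nucleus was not analysed here.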

Additional observations from a re-analysis of the deposited data

Results flagged for a closer look

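Values with 1 library far from the other 4 labelled *Adipo-HuR-/-* are given here; chance alone sets a library apart in about 1 of 20 groups of values, and 10 of 127 were set apart. A25 stood below the rest for the share of *mt-Nd4* within the mitochondrial counts (6.35%, next 7.32%), for that of *mt-Nd6* (1.00%, next 1.30%) and for *Tfam* (40.9 CPM, next 49.6). A24 stood above the rest for *Cox6b1* (1419 CPM, next 954) and *Atp5g2* (26.4 CPM, next 15.1). A31 stood above the rest for *Cox6a2* (1.59 CPM, next 0.059) and for the contractile genes *Acta1* (54.0 CPM, next 0.395), *Myh4* (105.8 CPM, next 0.113), *Tnnt3* (45.9 CPM, next 0.095) and *Myl2* (0.197 CPM, next 0). A25 and A24 had the fewest counts, and the part of depth in these values was not tested.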

How the results depend on the processing

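The number of genes past the threshold, 105, was 818 in DESeq2's Wald test, 655 in edgeR's likelihood ratio test, 15 with the contractile covariate, 5 without A24 and A25, 4 without A7, A8 and A31 and 64 with the GC trend of each library removed, and lay between 10 and 190 when each library was left out in turn. The cause was not tested. The number of mitochondrial genes past it, 0, was 1 (*mt-Atp8*) in DESeq2's Wald test, in the likelihood ratio test and with copies added and scaling to the mitochondrial total, and 0 in every fit without a single library. *mt-Atp8* lay below 0 in all 24 alternatives. The difference in the mitochondrial share, -3.77 points, lay between -8.07 and -0.14 with single libraries left out, and without A7 the groups did not overlap; taking out ribosomal RNAs could not be run. The log2 difference of the ratio of *mt-Nd6* to *mt-Nd5* lay between -0.17 and 0.13 with single libraries left out, and that of *mt-Cytb* to *mt-Nd1* between -0.23 and -0.061, with no overlap between the groups without A25. Over all alternatives, fold changes of the reported genes kept direction and side of the threshold in 1923 cases, lost a call in 32, gained a call in 6 and changed sign in 116. Fold changes of genes named in the text that were not past the threshold turned their sign as follows; the cause was not tested. With total counts only, it was 0.052 for *mt-Nd1*, 0.048 for *mt-Nd2*, 0.069 for *mt-Nd5*, 0.040 for *Tfb2m*, 0.11 for *Grsf1*, 0.21 for *Lars2*, 0.27 for *Cox6b1*, 0.20 for *Atp5a1*, 0.20 for *Atp5b*, 0.20 for *Sdha*, 0.094 for *Hspa9*, 0.13 for *Ucp1*, 0.042 for *Cidea*, 0.067 for *Fabp4*, 0.085 for *Lyz2*, 0.13 for *C1qa* and 0.019 for *Dcn*. With nuclear copies added, it was -0.10 for *mt-Nd3*. Without A24 and A25, it was 0.11 for *mt-Nd5*, -0.093 for *Ndufv1*, -0.24 for *Ndufb8*, -0.11 for *Cox6a1*, -0.13 for *Atp5j2*, -0.073 for *Sdhb*, -0.0093 for *Sdhc* and -0.011 for *Sdhd*. Without A7, A8 and A31, it was 0.18 for *Lars2*, 0.23 for *Cox6b1*, 0.090 for *Atp5a1*, 0.48 for *Atp5g1*, 0.37 for *Lep*, 1.21 for *Acta1*, -0.15 for *Cdh5*, -0.12 for *Kdr* and -0.41 for *Gm20594*. With the contractile covariate, it was 0.93 for *Cox6a2*, 0.043 for *Cox6b1*, 1.86 for *Acta1*, 4.94 for *Myh4*, 1.56 for *Tnnt3* and -0.14 for *Gm20594*. In limma voom, it was 0.082 for *Cox6b1*. With copies added and total counts only, it was 0.052 for *mt-Nd1*, 0.048 for *mt-Nd2*, 0.015 for *mt-Co1* and 0.069 for *mt-Nd5*. With copies added and scaling to the mitochondrial total, it was 0.16 for *mt-Nd1*, 0.15 for *mt-Nd2*, 0.11 for *mt-Co1*, 0.029 for *mt-Nd4l*, 0.18 for *mt-Nd5*, 0.095 for *mt-Nd6* and 0.0015 for *mt-Cytb*. With the GC trend removed, it was -0.095 for *Polg*, 0.0011 for *Grsf1*, -0.089 for *Tufm*, -0.076 for *Ndufv1*, -0.100 for *Ndufb8*, -0.018 for *Cox4i1*, -0.088 for *Cox6a1*, 0.012 for *Sdha* and -0.088 for *Sdhb*. With single libraries left out, the log2 fold change ranged from -0.50 to 0.23 for *mt-Nd1*, -0.53 to 0.15 for *mt-Nd2*, -0.0078 to 0.91 for *mt-Nd3*, -0.54 to 0.21 for *mt-Nd5*, -0.77 to 0.16 for *mt-Nd6*, -0.65 to 0.039 for *mt-Cytb*, -0.51 to 0.089 for *Ssbp1*, -0.065 to 0.50 for *Hsd17b10*, -0.23 to 0.15 for *Lars2*, -0.0078 to 0.088 for *Ptcd3*, -0.13 to 0.38 for *Ndufb8*, -0.20 to 0.35 for *Cox6b1*, -0.084 to 0.034 for *Atp5a1*, -0.12 to 0.026 for *Atp5b*, -0.14 to 0.64 for *Atp5j2*, -0.076 to 0.027 for *Sdha*, -0.14 to 0.41 for *Sdhb*, -0.021 to 0.39 for *Sdhc*, -0.020 to 0.096 for *Cs*, -0.41 to 0.14 for *Ucp1*, -0.43 to 0.13 for *Cidea*, -0.41 to 0.15 for *Fabp4*, -0.087 to 0.22 for *Kdr*, -0.43 to 0.44 for *Lyz2*, -0.40 to 0.20 for *C1qa*, -0.0035 to 0.29 for *Cd4*, -0.43 to 0.11 for *Dcn* and -0.40 to 0.31 for *Gm20594*. The settings with the GC trend removed, and with copies together with another scaling, were chosen after seeing the data. Depth limits A24 and A25 most. No paired analysis was possible because the animal numbers of the groups share none.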

Other observations

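*Gm20594*, annotated as a protein-coding gene on chromosome 6, shares 42 of its 31-base words with the mitochondrial ribosomal RNA gene *mt-Rnr2*. It was measured at 3727 CPM in A12, 3958 in A8 and 1016 in A7, and at 3371, 3313, 2263, 2416 and 3247 in A31, A29, A26, A25 and A24. The groups overlapped; edgeR's quasi-likelihood test gave 0.01 for the log2 fold change and 0.991 for the adjusted p. Whether these counts come from mitochondrial ribosomal RNA was not tested. The gene was chosen after its values were seen.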
